A study of Mus musculus with 6 samples.

Results

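A cassette exon is an internal exon that some transcripts of a gene keep and others skip. Of the cassette exons skipped singly in the nucleus accumbens (NAc) transcript lists, those with a length divisible by 3 are described here, since including or skipping such an exon leaves the reading frame downstream of it as it was. Members were events of the class "single exon skipped, exon included" in at least 1 library, with an exon of at least 28 nucleotides and a length that 3 divides. There were 4132 such exons in 2825 genes, which is 49.4% of the 8369 single cassette exons of that length and 3.10% of all 133207 listed events. The other 4237 single cassette exons have a length that 3 does not divide and are called frame-shifting below.

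The samples were total RNA of the NAc from adult male wild-type C57BL/6N mice put through conditioned place preference, a test in which an animal learns to prefer a compartment paired with a drug. Mice of the morphine group received morphine in the paired sessions and mice of the saline group received saline throughout, and each group gave 3 libraries. The series description gives 6 mice per group for 3 samples, while other text of the study treats a library as a mouse, so the spread between libraries may be that of pools of animals or partly technical, and p-values measure only that spread. The comparison asks whether the kinds of exon skipped differ between NAc tissue of morphine-conditioned and saline-treated mice.

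A cassette exon that keeps the frame adds or removes a stretch of amino acids, and both forms of the protein can be made. A frame-shifting exon inside the coding sequence changes every codon after it, usually brings an early stop codon, and can send the transcript into nonsense-mediated decay. The brain is known for a large number of short, frame-preserving exons, many in receptors, adhesion molecules, ion channels and synaptic scaffolds, which are controlled by RNA-binding proteins such as those of the Nova, Rbfox, Ptbp and Srrm families.

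For illustration, 11 well-known exons of this kind that were in the lists of all 6 libraries are printed first to show what a member is. The exon is in capitals, and the 15 lower-case bases on either side are the ends of the neighbouring exons in a spliced GENCODE M21 transcript (GRCm38), written 5′ to 3′ on the coding strand. They were the N1 and C1 exons of Grin1 (the obligatory subunit of NMDA-type glutamate receptors), the VASE exon of Ncam1 (a cell adhesion molecule), both N-terminal exons of Mapt (the microtubule protein tau), and the neuronal exons of the clathrin light chains Clta and Cltb. The remaining exons were from Nf1 (a Ras GTPase-activating protein), Nova1 (a neuronal splicing factor) and Aplp2, the latter the Kunitz-type protease inhibitor exon of this amyloid precursor relative.
Grin1, 63 nucleotides, chr2:25311343-25311405, minus strand: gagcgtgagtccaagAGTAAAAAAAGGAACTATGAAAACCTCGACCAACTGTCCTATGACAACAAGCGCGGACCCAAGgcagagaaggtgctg
Grin1, 111 nucleotides, chr2:25294438-25294548, minus strand: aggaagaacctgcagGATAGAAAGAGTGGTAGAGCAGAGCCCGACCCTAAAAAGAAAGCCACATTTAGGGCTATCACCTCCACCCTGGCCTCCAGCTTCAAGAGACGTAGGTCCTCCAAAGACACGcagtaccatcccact
Ncam1, 30 nucleotides, chr9:49550540-49550569, minus strand: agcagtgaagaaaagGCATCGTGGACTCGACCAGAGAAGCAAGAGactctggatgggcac
Mapt, 87 nucleotides, chr11:104287123-104287209, plus strand: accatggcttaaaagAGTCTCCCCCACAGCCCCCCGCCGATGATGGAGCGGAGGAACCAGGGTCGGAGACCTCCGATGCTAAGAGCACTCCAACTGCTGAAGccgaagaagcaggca
Mapt, 87 nucleotides, chr11:104289908-104289994, plus strand: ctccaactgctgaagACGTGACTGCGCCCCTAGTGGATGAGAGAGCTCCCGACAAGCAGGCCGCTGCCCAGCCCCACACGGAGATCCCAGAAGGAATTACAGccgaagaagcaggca
Clta, 54 nucleotides, chr4:44030215-44030268, plus strand: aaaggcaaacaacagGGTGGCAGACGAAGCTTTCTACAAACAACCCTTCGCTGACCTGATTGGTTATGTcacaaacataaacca
Clta, 36 nucleotides, chr4:44031400-44031435, plus strand: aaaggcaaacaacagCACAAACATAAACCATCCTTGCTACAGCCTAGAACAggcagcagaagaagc
Cltb, 54 nucleotides, chr13:54597026-54597079, minus strand: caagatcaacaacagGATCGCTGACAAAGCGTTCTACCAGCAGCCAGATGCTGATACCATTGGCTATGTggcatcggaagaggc
Nf1, 63 nucleotides, chr11:79463233-79463295, plus strand: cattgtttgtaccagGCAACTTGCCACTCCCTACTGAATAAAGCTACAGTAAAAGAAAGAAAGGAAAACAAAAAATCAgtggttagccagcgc
Nova1, 72 nucleotides, chr12:46713498-46713569, minus strand: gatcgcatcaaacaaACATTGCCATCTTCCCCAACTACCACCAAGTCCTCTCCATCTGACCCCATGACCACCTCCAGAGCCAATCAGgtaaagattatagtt
Aplp2, 168 nucleotides, chr9:31167561-31167728, minus strand: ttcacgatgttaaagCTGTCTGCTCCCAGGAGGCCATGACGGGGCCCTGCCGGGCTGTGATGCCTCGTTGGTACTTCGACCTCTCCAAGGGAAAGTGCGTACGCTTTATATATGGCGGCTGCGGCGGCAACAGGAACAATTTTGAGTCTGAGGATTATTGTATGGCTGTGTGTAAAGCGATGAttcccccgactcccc

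These 11 exons showed how the rule works on a protein. The Ncam1 exon adds 10 residues and the Grin1 exons add 21 and 37 residues. The 54-nucleotide exons of Clta and Cltb stand at the same place in related genes, and both add 18 residues. Both Mapt exons add 29 residues each.

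Most members were short. The median length was 102 nucleotides, with quartiles at 66 and 150, and 93.1% were no longer than 300 nucleotides. Frame-shifting exons had a median length of 113 nucleotides. Among the 2847 members that are annotated coding exons over their whole length, the median was 99 nucleotides, or 33 residues, with quartiles at 22 and 48 residues. The longest coding members were the giant exon of Ank3 with 7674 nucleotides and that of Ank2 with 6198, both from scaffold proteins of the axon, and an exon of Vcan (a matrix proteoglycan) with 5217. The first and second were listed in all 6 libraries and the Vcan exon in 5. Of the 109 members longer than 1000 nucleotides, 71 were not annotated exons, and the longest of all spanned 66795 nucleotides. At the lower limit, 47 members had 30 nucleotides, of which 24 (51.1%) were in all 6 libraries, and 75 exons of 27 nucleotides lay just below it, of which 36 (48%) were in all 6. The shortest members by alphabetical order were 30-nucleotide exons of 6430548M08Rik, Acly (ATP citrate lyase) and Adam22 (a synaptic receptor of the LGI proteins).

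**Figure D1:**
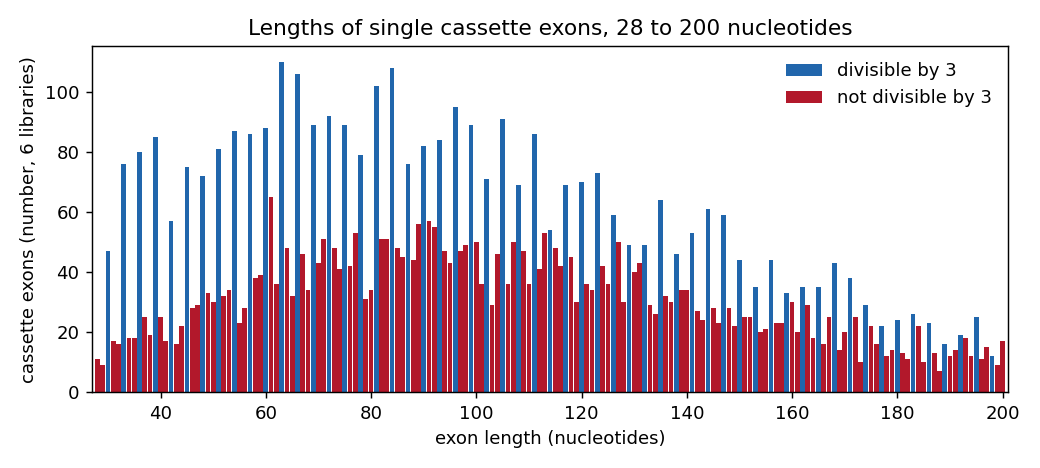
Number of exons (vertical axis) by exon length from 28 to 200 nucleotides (horizontal axis) for frame-preserving and frame-shifting single cassette exons listed in at least 1 of 6 libraries. Longer exons are not drawn. Over all lengths, frame-preserving exons have a median of 102 and frame-shifting exons of 113 nucleotides.

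Members recurred in more libraries than frame-shifting exons. Of the 4132 members, 1337 (32.4%) were listed in all 6 libraries, 342 in 5, 314 in 4, 330 in 3, 508 in 2, and 1301 (31.5%) in 1 library. Of the frame-shifting exons, 637 (15.03%) were in all 6 libraries and 1956 (46.2%) in 1. The mean number of libraries per exon was 3.46 (SD 2.12) for members and 2.59 (SD 1.88) for frame-shifting exons. The share of single cassette exons whose length 3 divides was 39.9% among those listed in 1 library, 49.8% among those in 4, 54.2% among those in 5 and 67.7% among those in 6. For wholly coding exons the corresponding shares were 43.3%, 58.6%, 64.8% and 80.5%. Of the 163637 annotated internal coding exons of at least 28 nucleotides, 40.8% had a length divisible by 3. Among wholly coding exons, those listed once (43.3%) were therefore nearest to the annotation in this respect, and those listed in every library (80.5%) the farthest. The shares over all single cassette exons also cover untranslated, noncoding and unannotated exons, which the annotated set leaves out.

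**Figure D2:**
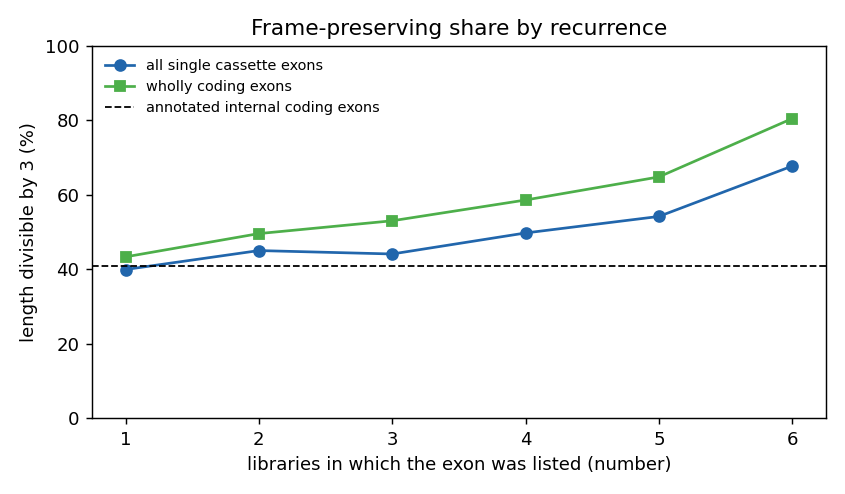
Percentage of single cassette exons with a length divisible by 3 (vertical axis) against the number of libraries that listed the exon (horizontal axis), for all exons and for wholly coding exons. The share goes from 39.9% to 67.7% for all exons and from 43.3% to 80.5% for coding ones, and the dashed line at 40.8% is that of annotated internal coding exons.

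Short members recurred most. In all 6 libraries were 43.8% of the 834 members of up to 60 nucleotides, 36.1% of the 933 between 61 and 90, 32.9% of the 778 between 91 and 120, 25.3% of the 557 between 121 and 150, 25.9% of the 744 between 151 and 300, and 15.7% of the 286 longer ones. In the same length classes 23.0%, 16.6%, 16.9%, 12.04%, 13.7% and 4.89% of the frame-shifting exons were in all 6 libraries, so members were above frame-shifting exons in each class. The share of exons that preserve the frame was 61.3% in the shortest class and between 41.2% and 50.9% in the others.

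Members also differed from frame-shifting exons in where they lie. Of the members, 3549 (85.9%) have the exact start and end of an annotated exon, 2847 (68.9%) are coding over their whole length, 280 (6.78%) are partly coding, 324 (7.84%) lie in untranslated regions, 304 of them 5′, and 98 belong only to noncoding transcripts. The remaining 583 (14.1%) are not annotated as exons with these ends. Among frame-shifting exons, 77.98% were annotated, 47.7% were wholly coding, 12.2% partly coding and 13.8% untranslated. Both the inclusion and the skipping junction were in the annotation for 68.3% of members and 50.6% of frame-shifting exons. Of the unannotated members 40 (6.86%) were listed in all 6 libraries and 352 (60.4%) in 1 library, against 1118 (39.3%) in all 6 for coding members. Coding frame-shifting exons were in all 6 libraries in 271 cases (13.4%). In all, 41 members (0.992%) lie on the other strand than their annotated gene and 394 (9.54%) overlap another member, so these do not count as separate stretches of sequence.

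The same contrast was measured inside each library, so that each library gave a pair of values. On average over the 6 libraries, 76.0% ± 0.933 (SD, n = 6) of a library's members were wholly coding, against 46.5% ± 0.898 of its frame-shifting exons. The difference was 29.5 percentage points, with a range over libraries of 28.6 to 30.1. Exons listed in all 5 other libraries made up 56.2% ± 1.74 of members and 34.8% ± 1.54 of frame-shifting exons, a difference of 21.3 points with a range of 19.5 to 22.1. These are the same 1337 members and 637 frame-shifting exons in every library, and only the totals they are divided by vary. Annotated exons were 92.0% ± 0.759 against 85.5% ± 1.19, a difference of 6.48 points, and annotated skipping junctions were 87.6% ± 0.675 against 77.8% ± 1.49, a difference of 9.82 points. The mean GC content, taken only over exons with annotated ends, was 50.8% ± 0.078 against 49.3% ± 0.236, a difference of 1.51 points. Every one of these 5 features was higher for members in 6 of 6 libraries, and each gave p = 0.03125 by an exact two-sided sign-flip permutation over libraries, the smallest value 6 libraries can give (adjusted p = 0.03125 by Benjamini-Hochberg over the 5). The libraries list many of the same exons, so these pairs are not independent and the tests say how stable the difference was between libraries, not how many exons carry it. For the share listed in all other libraries the 6 pairs repeat a single contrast, so its test says nothing beyond the counts over all libraries.

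**Figure D3:**
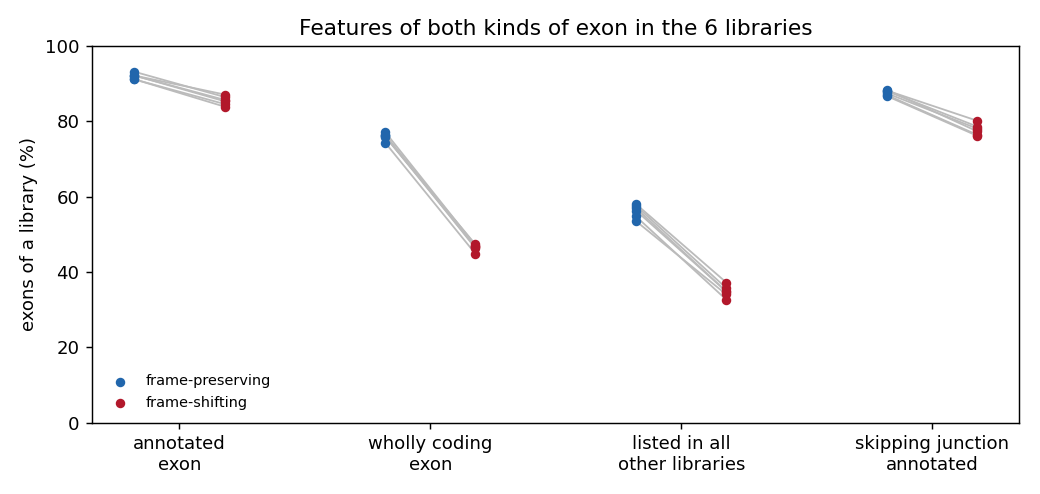
Percentage of a library's exons (vertical axis) that are annotated, wholly coding, listed in all other libraries or have an annotated skipping junction, for frame-preserving and frame-shifting exons; each point is 1 of 6 libraries and grey lines join the points of a library. Frame-preserving exons are higher in every library for all 4 features, with the widest gap for wholly coding exons at 29.5 points.

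Where a coding member starts relative to the codons decides whether it adds whole codons or also changes the codon across its junction. Of the 2847 coding members, 1240 (43.6%) start between codons, 1124 (39.5%) after the first base of a codon and 467 (16.4%) after the second base, and 16 start at different places in different transcripts. Among annotated internal coding exons whose length 3 divides, also of at least 28 nucleotides, the shares were 55.9%, 30.7% and 12.9%. The Grin1, Ncam1, Nf1 and Nova1 exons printed above start between codons, and those of Mapt and Aplp2 after the first base of a codon.

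A length divisible by 3 does not by itself keep a protein open. Of 270 members that are annotated but not wholly coding and follow a known reading frame, 231 (85.6%) held a stop codon in that frame, and 67 of these 231 (29.004%) were listed in all 6 libraries. Of 2817 coding members with a known frame, 8 (0.284%) held one. Wholly coding exons are those annotated as coding from end to end, so they hold few stop codons by definition. The contrast between these shares therefore largely restates the annotation. For illustration, 6 such stop-carrying members that were in all 6 libraries are shown, chosen after their listings were seen, because the frame of a known protein runs into a stop inside each. They are a pair of exons of Rgs7, a regulator of G protein signalling in neurons, and single exons of Grik2, a kainate receptor subunit, Nf2, the tumour suppressor merlin, Mag, a myelin adhesion protein with a short and a long form, and Csnk1d, a casein kinase. Each line ends with the stop codon, in capitals, preceded by 27 bases of the same exon.
Rgs7, 78 nucleotides, chr1:175066617-175066694, minus strand: gccgtacttagcccaagagcctttgttTAA
Rgs7, 81 nucleotides, chr1:175076017-175076097, minus strand: acactgagggccagcactaacctgttaTGA
Grik2, 87 nucleotides, chr10:49104979-49105065, minus strand: gtgccaccataccatccagacactgttTAG
Nf2, 45 nucleotides, chr11:4780578-4780622, minus strand: gcccaaggcagaagacctatctgcattTGA
Mag, 45 nucleotides, chr7:30900352-30900396, minus strand: agagaggtctctacccgggattgtcacTGA
Csnk1d, 63 nucleotides, chr11:120964948-120965010, minus strand: agcattcctttcgaacaccacggcaagTAG

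In the first of the Rgs7 exons the stop codon starts at base 52 of 78, counted from the 5′ end of the exon, and in the second at base 73 of 81. It starts at base 31 of 45 in Mag and at base 34 of 45 in Nf2.

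Genes with several members were the minority. Of the 2825 genes, 2015 (71.3%) had 1 member, 510 had 2, 283 had 3 to 5 and 17 had 6 or more. Ank2 had 10, with 6 in all libraries, and Wnk1, a kinase controlling ion transport, had 9, with 7 in all libraries. Ank3 had 8, with 5 in all libraries, and Emsy, a transcriptional regulator, had 8, with 3 in all libraries. Members overlap within these genes. The 72-nucleotide and 93-nucleotide exons of Wnk1 share their 5′ boundary, and the giant exon of Ank3 shares sequence with members of 6393 and 2550 nucleotides.

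Ank2 shows a repeated length. Of its members, 5 have 99 nucleotides, or 33 residues. Of these, 3 were in all 6 libraries while the other 2 were in 1 saline and 1 morphine library each. An ankyrin repeat also has 33 residues, but length alone does not show that an exon encodes one, and this was not tested for the 5. The exon at chr3:126963383-126963481, in all 6 libraries and not printed, starts after the second base of a codon. Those at chr3:127248134-127248232, in all 6 libraries, and chr3:127029219-127029317, in 2, start between codons and are not printed either. The printed exons do not stand for all 5. Both exons printed here start between codons, the first in all 6 libraries and the second in 2.
Ank2, 99 nucleotides, chr3:127012673-127012771, minus strand: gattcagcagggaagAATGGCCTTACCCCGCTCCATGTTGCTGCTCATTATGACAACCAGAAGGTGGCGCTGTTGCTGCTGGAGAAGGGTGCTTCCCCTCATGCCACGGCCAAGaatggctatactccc
Ank2, 99 nucleotides, chr3:127029475-127029573, minus strand: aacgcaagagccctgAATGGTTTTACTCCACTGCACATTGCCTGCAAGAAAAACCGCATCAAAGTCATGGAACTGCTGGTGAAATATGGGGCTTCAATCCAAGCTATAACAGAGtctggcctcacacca

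The 16 genes with textbook cassette exons that were chosen for description gave members in 14. App, the amyloid precursor protein, and Dlg4, the scaffold PSD-95, had none. Exons skipped together with others, or with a length that 3 does not divide, cannot be members, so a gene may have none through the rule alone. The other genes gave 38 members, of which 28 were in all 6 libraries and 2 in 1 library. In Mapt, the 87-nucleotide exons were in all 6 libraries, while a 54-nucleotide exon was in all 3 saline libraries and in 1 of 3 morphine libraries. In Camk2d, a subunit of calcium/calmodulin-dependent kinase II, exons of 33, 60 and 42 nucleotides were in all 6. In the related Camk2b the 45-nucleotide exon was in all 6, exons of 129 and 75 nucleotides were in saline libraries 2 and 3 only, and an exon of 114 nucleotides was in morphine library 1 only. The 30-nucleotide exon of Dnm2, a dynamin that pinches off vesicles, was in 4 libraries, 2 of each group. In Nova1 the 72-nucleotide exon was in all 6, and an unannotated exon of 102 nucleotides was missing from 1 morphine library. In Mbp, a main protein of compact myelin, exons of 78, 33 and 123 nucleotides were in all 6. In Bin1, a membrane-bending adaptor, exons of 93, 108 and 72 nucleotides were in all 6 and 1 of 129 nucleotides was in 3.

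Members were counted in gene lists chosen by function. In each list the share of members in all 6 libraries is set beside that of all members, 32.4%, and the share of its single cassette exons that preserve the frame beside 49.4%. The synaptic adhesion list had 52 members in 21 of its 29 genes. Of these 31 (59.6%) were in all 6 libraries, and 80.0% of the list's single cassette exons kept the frame. In it the receptor phosphatase Ptprf had exons of 579 and 306 nucleotides, and Tenm3 and Tenm4, of the teneurin adhesion family, had exons of 279 and 210 nucleotides, all in 6 libraries.

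The list of glutamate receptors and their scaffolds had 31 members in 14 of 25 genes, 17 of them (54.8%) in all 6 libraries, with 63.3% of single cassette exons keeping the frame. Among the longest in all 6 libraries, beside the 111-nucleotide Grin1 exon, were exons of Grip1, an AMPA receptor scaffold (156 nucleotides), Dlg1, a relative of PSD-95 (99 nucleotides), Dlgap2 (99 nucleotides, partly coding) and Grm5, a metabotropic receptor (96 nucleotides).

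The list of cytoskeleton and axon segment genes had 72 members in 22 of 28 genes, 33 (45.8%) in all 6 libraries, and 81.8% kept the frame, the highest of the lists. A 408-nucleotide exon of Epb41l1, a membrane skeleton protein, stood in all 6 libraries beside the giant exons of Ank2 and Ank3. The ion channel list had 27 members in 14 of 22 genes, 13 (48.1%) in all 6, and 75% kept the frame. They included exons of the potassium channels Kcnma1 (81 nucleotides) and Kcnt1 (63), and of the calcium channels Cacna1g (69) and Cacna1b (63).

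The vesicle trafficking list had 59 members in 19 of 24 genes, 31 (52.5%) in all 6, and 73.8% kept the frame. Among the longest exons in every library were those of the adaptor Sorbs2 (1581 and 159 nucleotides) and of Syt7, a calcium sensor of exocytosis (228). The list of kinases and second messenger genes had 28 members in 13 of 25 genes, 17 (60.7%) in all 6, and 77.8% kept the frame. It held exons of Braf, a kinase of the Ras pathway (120), Camk2g (114), Ppp1r12a, a subunit of myosin phosphatase (171), and Agap1, an Arf GTPase-activating protein (159 and 78).

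The splicing factor list stood near the background. It had 28 members in 17 of 26 genes, 11 (39.3%) were in all 6 libraries, and 48.3% of its single cassette exons kept the frame. Its longest exons in every library were those of Hnrnpd (147), Celf2 (144), Hnrnpab (141), Mbnl1 (111) and Rbfox1 (81), RNA-binding proteins that act on splicing or RNA stability. The chromatin and transcription list had 23 members in 13 of 22 genes, 10 (43.5%) in all 6, and 59.0% kept the frame, among them Baz2b (285), the methyltransferase genes Kmt2e (126) and Ehmt2 (102), Smarcc2 (93) and Zfp207 (93).

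The amyloid precursor family list had 13 members in 5 of 11 genes, 7 (53.8%) in all 6, and 76.5% kept the frame. Lrp8, a reelin receptor, gave exons of 381, 177 and 123 nucleotides, and Bace1, the beta-secretase, 1 of 102. The myelin list had 9 members in 6 of 10 genes, 6 (66.7%) in all 6 libraries, and 69.2% kept the frame. Among those in all 6 were exons of Mbp, the lysophospholipase Enpp2 (75), Bcas1 (66) and Mag (45).

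The libraries were similar in number of members. Saline libraries listed 2305, 2323 and 2500, and morphine libraries 2375, 2443 and 2349, so the groups overlapped. The means were 2376 ± 107.8 (SD, n = 3) in saline and 2389 ± 48.5 (SD, n = 3) in morphine, a difference of 13 with p = 0.9 by an exact two-sided permutation test over libraries, adjusted p = 1 over the 7 values compared between the groups. With 3 libraries against 3 the test cannot go below 0.1. The sequencing totals are unknown, but the counts and FPKM of lncRNA transcripts in the other deposited table give depths of 1, 1.07 and 1.37 for saline and 1.198, 1.59 and 1.29 for morphine, relative to saline library 1. Of 3 relations with depth computed over the 6 libraries, the number of members gave Pearson r = 0.790 (exact permutation p = 0.0639, adjusted 0.129) and Spearman rho = 0.886 (exact permutation p = 0.0333, adjusted 0.0875). Without the libraries at both ends of depth, saline 1 and morphine 2, r was 0.799. All libraries listed between 54750 and 62313 events and between 14243 and 14956 genes.

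The share of single cassette exons that keep the frame was 57.4%, 56.5% and 57.2% in saline and 56.5%, 55.6% and 56.2% in morphine, with every morphine library below every saline library. The lowest and highest bounds of the 95% Wilson intervals of single libraries, which cover counting error only, were 54.1% and 58.9%, and the intervals of all 6 libraries overlapped. The means were 57.0% ± 0.427 and 56.1% ± 0.460 (SD, n = 3 each), a difference of -0.945 percentage points, with p = 0.1 by the exact permutation test, the smallest it can give, and adjusted p = 0.7. The share gave r = -0.678 (exact permutation p = 0.129) and rho = -0.657 (exact permutation p = 0.175) with depth, and r = 0.437 without saline 1 and morphine 2, so that relation rests on those libraries. The part of depth in the group difference was not tested.

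**Figure D4:**
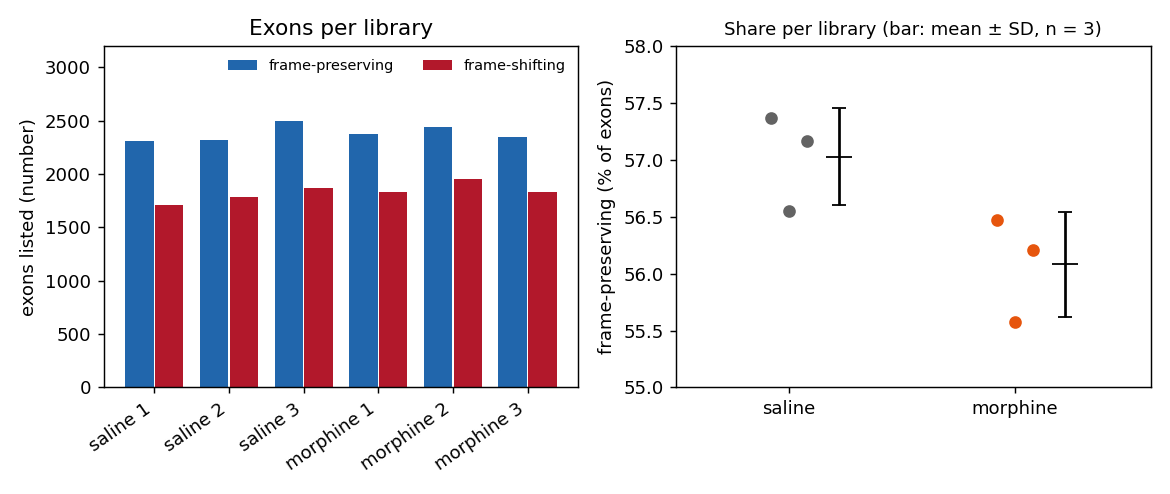
Left, frame-preserving and frame-shifting exons listed per library (number). Right, frame-preserving exons as a percentage of single cassette exons in each of 3 saline and 3 morphine libraries, with mean and SD beside the points and a vertical axis that starts at 55; the morphine libraries are all below the saline ones, with means of 56.1% and 57.0%.

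Features of the members were also compared between the groups. With 3 libraries against 3 the exact permutation test cannot go below 0.1, so no feature could pass 0.05 and the test cannot show that the groups are alike. Morphine minus saline, the share of members that were annotated differed by -0.324 points (exact permutation p = 0.9), wholly coding by 0.0908 (exact permutation p = 1), listed in all other libraries by -0.366 (exact permutation p = 0.8), with an annotated skipping junction by -0.530 (exact permutation p = 0.4), and mean GC by 0.019 (exact permutation p = 0.8). The adjusted p was 1 for each. The members listed in all other libraries are the same 1337 in every library. Their share therefore restates the number of members per library and is not a separate feature, although it entered the adjustment separately. Pairs of libraries from different groups shared 59.9% of the members either listed, against 60.8% within saline and 60.4% within morphine.

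Which members were listed in one group only is a count with no test. Of 4132 members, 47 (1.14%) were listed by every library of a single group, 23 (0.557%) by the 3 saline libraries alone and 24 (0.581%) by the 3 morphine libraries alone. The same was true of 1.44% of frame-shifting exons (0.59% saline, 0.85% morphine), 1.29% of all single cassette exons (0.574% saline, 0.717% morphine) and 0.66% of all listed events (0.278% saline, 0.382% morphine), so the members stood near the background of single cassette exons. The genes of all 47 were listed in all 6 libraries, 43 had no overlapping skip of any kind in the other group, 30 were wholly coding and 10 unannotated. A member missing from a list may lack the reads needed to assemble its skipped or included form: of the 10497 pairs of a member and a library that did not list it, the gene itself was listed in that library in 10440 (99.5%). The lists carry no level for an exon.

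In saline only, the longest coding members were in Ubap1, a subunit of the endosomal sorting complex (924 nucleotides), Sec31a, a coat protein of export from the endoplasmic reticulum (336 and 291, which overlap), Cnot4, a ubiquitin ligase tied to the CCR4-NOT complex (213), Pnpla8, a phospholipase (195), Rims2, a scaffold of the presynaptic active zone (180), and Mospd1 (162). They were followed by Topbp1, a DNA replication checkpoint protein (147), Smad2, a TGF-beta signal transducer (138), Fat1, an atypical cadherin (111), Ttll11, a tubulin polyglutamylase (99), and Taz, the mitochondrial cardiolipin transacylase tafazzin (81). Both Sec31a exons share their 5′ boundary, so they are not separate cases.

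In morphine only, they were in Ylpm1 (2118), Brd8, a bromodomain protein (210), Kdm6a, a histone demethylase (156), the zinc finger gene Zfp711 (135), Sprtn, a protease of DNA-protein crosslink repair (129), and Morn1 (111). Shorter ones were in Aff3 (75), Appl1, an endosomal adaptor (72), Fbrsl1 (72), the forkhead gene Foxn2 (69), Rgs11, a regulator of G protein signalling (69), and Sgip1, an endocytic protein (69). The Sgip1 exon overlaps, in all 3 saline libraries, skips of several exons together and a single skipped exon with other boundaries, so skipping in this stretch was listed in both groups. Of the function lists, only vesicle trafficking held any such exon, with Rims2 in saline and a 66-nucleotide exon of Ap2a1, a subunit of the clathrin adaptor AP-2, in morphine.

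To show which residues an exon of this kind would add, 5 are printed in the same form as above. Ap2a1 was chosen after its listing was seen.
Rims2, 180 nucleotides, chr15:39534838-39535017, plus strand, saline only: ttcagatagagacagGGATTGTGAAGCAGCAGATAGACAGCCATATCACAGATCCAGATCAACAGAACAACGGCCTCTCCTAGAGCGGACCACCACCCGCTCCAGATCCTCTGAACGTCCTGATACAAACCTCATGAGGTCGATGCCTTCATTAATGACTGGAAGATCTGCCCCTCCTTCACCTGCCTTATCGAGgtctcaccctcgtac
Taz, 81 nucleotides, chrX:74288019-74288099, plus strand, saline only: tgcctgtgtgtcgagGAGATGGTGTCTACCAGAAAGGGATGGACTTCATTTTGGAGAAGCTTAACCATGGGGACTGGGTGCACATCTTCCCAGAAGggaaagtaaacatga
Kdm6a, 156 nucleotides, chrX:18247567-18247722, plus strand, morphine only: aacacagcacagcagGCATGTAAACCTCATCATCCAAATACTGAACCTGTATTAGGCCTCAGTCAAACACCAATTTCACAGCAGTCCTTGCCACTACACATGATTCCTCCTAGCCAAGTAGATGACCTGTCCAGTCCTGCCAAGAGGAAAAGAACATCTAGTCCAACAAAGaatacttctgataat
Appl1, 72 nucleotides, chr14:26962806-26962877, minus strand, morphine only: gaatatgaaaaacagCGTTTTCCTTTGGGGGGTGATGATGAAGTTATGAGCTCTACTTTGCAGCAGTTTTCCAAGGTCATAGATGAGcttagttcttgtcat
Ap2a1, 66 nucleotides, chr7:44903462-44903527, minus strand, morphine only: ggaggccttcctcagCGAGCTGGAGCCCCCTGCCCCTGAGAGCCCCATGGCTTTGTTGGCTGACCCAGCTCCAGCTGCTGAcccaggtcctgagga

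**Figure D5:**
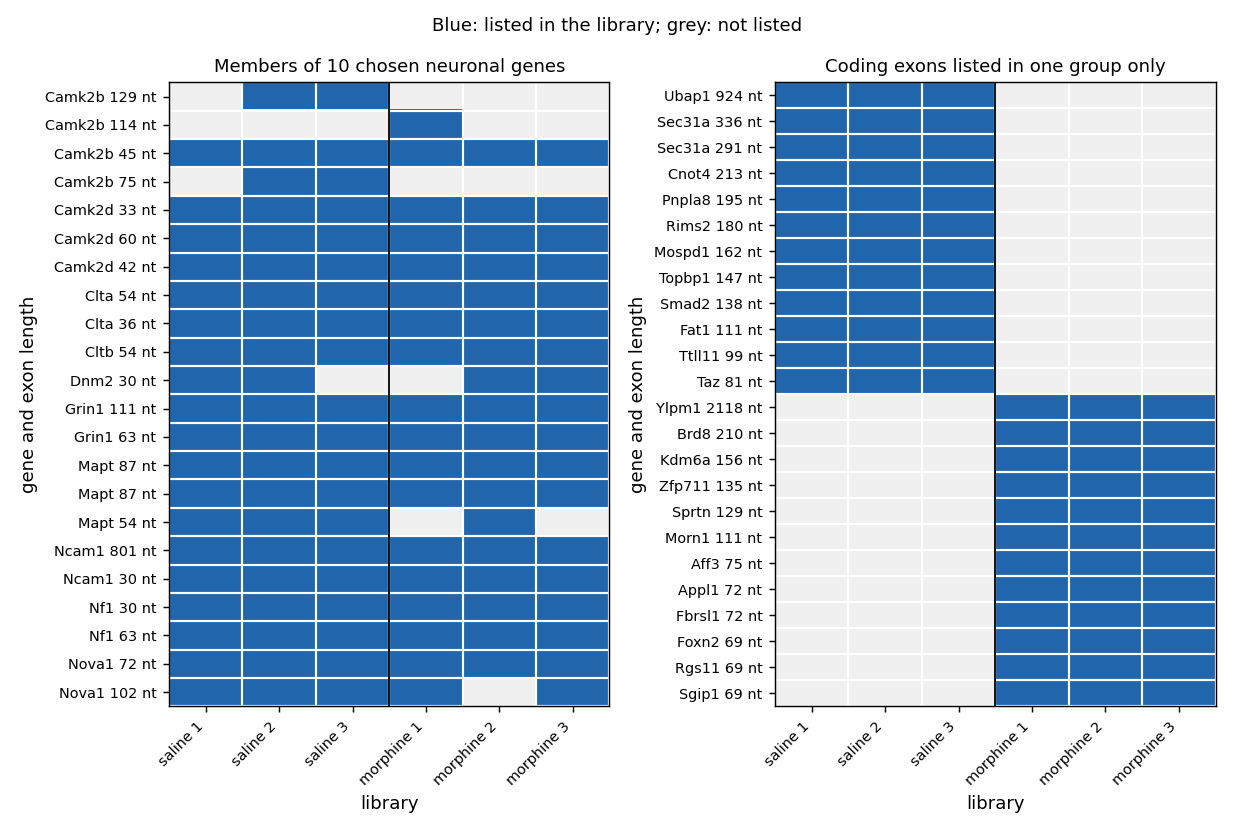
Listing of exons (rows, by gene and length in nucleotides) in each of the 6 libraries (columns), blue where listed. Left, members of 10 of the textbook genes, of which the 2 clathrin light chain genes are listed throughout while Dnm2 and Camk2b have gaps in both groups; right, the longest coding exons listed in all 3 libraries of one group and none of the other, 12 in each group.

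The tissue was checked by listing alone, since the lists hold no levels. All 27 marker genes were listed in all 6 libraries, those of striatal neurons such as Drd1, Drd2, Adora2a and Ppp1r1b as well as those of oligodendrocytes, astrocytes, microglia, ependyma and choroid plexus, and cortex. The listing therefore does not separate cell types, and in bulk tissue fewer cells of a type and less RNA per cell cannot be told apart. The number of members listed nowhere else was 195, 190 and 253 in saline and 224, 232 and 207 in morphine. With relative depth this number gave Pearson r = 0.737 (exact permutation p = 0.0903, adjusted 0.129). Spearman rho was 0.829 (exact permutation p = 0.0583, adjusted 0.0875). Without saline 1 and morphine 2, r was 0.827.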

How the data were processed

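Total RNA of 3 saline and 3 morphine NAc samples was sequenced from directional libraries. Per the study's methods, the authors mapped reads with HISAT2 2.0.4 and assembled transcripts with StringTie 1.3.1. The methods do not say whether each library was assembled separately. The 6 deposited event lists, in the layout of ASprofile, give the class, exon ends and pattern of each event in a library. Their genome build is not given in the sources used here, and exon ends were matched to GENCODE M21 on GRCm38. A deposited column headed FPKM in these lists held 0 and negative whole numbers, so it was not used as a level, and the only measurement is whether an event was listed. A separate deposited table of lncRNA transcripts holds read counts and FPKM per library, computed by the authors with StringTie, which served only for relative depth (91 values with at least 10 counts). Its fold changes and false discovery rates were not used.

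An exon was 1 member per gene, strand, start and end. Wholly coding, partly coding and untranslated exons, codon starts and spliced sequences came from GENCODE. Groups were compared over libraries by exact two-sided permutation, and both kinds of exon within libraries by exact sign flips, with Benjamini-Hochberg adjustment, in Python 3.11.15 with scipy 1.17.1, pandas 2.3.3 and numpy 2.4.6. The counting of listed exons, the exact tests and the adjustment were tested on simulated data, while the annotation and sequence steps were not. Named genes were coding exons listed in one group only (up to 12 per group, longest first), list members in all 6 libraries (up to 5 per list, longest first), the 5 genes with most members, the 3 longest and 3 shortest exons, and textbook cassette exons. Members, lists and this rule were chosen with earlier results of these data known. Other event identities, filters and left-out libraries were tried as alternatives. Some exons that this rule names are not reported here.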

Additional observations from a re-analysis of the deposited data

How the results depend on the processing

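The higher shares of annotated, coding and recurrent exons, annotated skipping junctions and GC among frame-preserving than frame-shifting exons kept their direction under every alternative run. Leaving out 1 library at a time gave differences of 6.32 to 6.77 points for annotated exons, 29.4 to 29.7 for coding, 20.6 to 21.95 for listed in all other libraries, 9.58 to 10.2 for skipping junctions and 1.46 to 1.601 for GC. With 5 libraries the exact permutation p was 0.0625, the smallest it can then be, so each passed 0.05 only with all 6. Among genes with both kinds of exon, an alternative added after seeing the data, the listing difference was 19.2 and the junction difference 7.50 points, and among coding exons, also added, 29.9 and 20.8.

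The morphine minus saline share of frame-preserving exons ranged from -1.18 to -0.690 with 1 library left out. The difference in number ranged from -22.5 to 75 and was reversed without saline 1 (-22.5), saline 2 (-13.5) and morphine 2 (-14). Features of members between the groups ranged from -0.834 to 0.183 (annotated), -0.726 to 0.685 (coding), -1.86 to 0.487 (listed in all other libraries), -1.03 to -0.215 (skipping junction) and -0.0229 to 0.0714 (GC). Members in one group only numbered 47, and 98 to 113 with 1 library left out, since 2 libraries against 3 is a looser criterion; 30 were coding, since fewer exons then enter. The search for TGCATG downstream of exons was not run, because no intron sequence was used here. No paired analysis was possible because the labels give no replicate numbers that tie saline and morphine samples. Sequencing totals are unknown, so an unlisted exon may still be used in that tissue.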
